A study of Homo sapiens with 18 samples.

Results

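The 3 DMSO-arm libraries of time point 40 were set against the 3 DMSO-arm libraries of time point 0, 6 of the 18 libraries of the series, to describe which RNA classes fell and which held while transcription was blocked. All cells were hTERT RPE-1, a human retinal pigment epithelial line immortalised with telomerase reverse transcriptase. They were kept in 10% serum, starved for 48 h in 0.1% serum and given 10 µM triptolide, and the labels place them in G0/G1. The libraries of both groups carry DMSO in their titles and are labelled as not treated with etoposide. An etoposide arm of the series also entered the fit and is set beside the DMSO arm below. For etoposide the protocol in the labels gives 50 µM for 30 min. Time points 40 and 0 have no unit in the labels, and it is not stated there if cells of time point 0 had already met triptolide, so these numbers are only names. The 3 replicates of a group are called independent in the labels, and their numbers were used as a block. Of 58051 genes listed, 14186 had enough counts to be tested.

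Triptolide binds XPB, the ATPase of the general transcription factor TFIIH, and stops initiation by RNA polymerase II. Without new synthesis the level of each mRNA follows its decay, so short-lived mRNAs leave the pool soonest and long-lived ones gain in relative share. Many short-lived mRNAs carry AU-rich elements in the 3′ untranslated region (3′ UTR), bound by proteins such as tristetraprolin, the product of ZFP36, which recruits the CCR4-NOT deadenylase. RNA of immediate-early genes, cytokines and feedback inhibitors is the best known class of this kind.

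The AU-rich 7-mer TATTTAT, written as DNA, was located in the 3′ UTR of 1 transcript per gene from GENCODE 29 on GRCh38. Windows of 30 bases around the first match are shown for the 6 coding genes with the largest falls that passed the naming rule and held at least 2 matches, and for the 2 most abundant mRNAs that held at least 3 matches in a 3′ UTR of up to 2000 bases and moved by less than 0.1 on the log2 scale. Those 2 were chosen after their values were seen. Capitals mark every base of a TATTTAT that lies wholly inside the window.
ZFP36: aatgggcccttTATTTATgacgactttatt
SOCS3: aactttgcacaTATTTATATTTATattcag
DUSP1: gggctggtcctTATTTATttaacttcaccc
SPRY1: actcaagttgaTATTTATagctgatcaatc
NFKBIA: accacattttaTATTTATtgtgcttcgagt
NUAK2: atttttattttTATTTATTTATTTATtttt
MACF1: cattgggtgtaTATTTATtctgaacgggag
ENO2: aggctttagtgTATTTATTTATTTATTTAT
The windows lie at chr19:39409181-39409210 on the plus strand for ZFP36, chr17:78356831-78356860 on the minus strand for SOCS3 and chr5:172768642-172768671 on the minus strand for DUSP1. Those of SPRY1, NFKBIA and NUAK2 are chr4:123403338-123403367 (plus), chr14:35401698-35401727 (minus) and chr1:205302894-205302923 (minus). The windows of the held mRNAs are chr1:39485845-39485874 (plus) for MACF1, a cytoskeletal linker, and chr12:6923278-6923307 (plus) for ENO2, an enolase of glycolysis. The run of overlapping 7-mers in NUAK2, which fell, is matched by a longer run in ENO2, which held.

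Total counts of the 6 libraries ranged from 8758232 to 11426144, and 18455 to 20410 genes had a count in each. Replicate 2 of time point 0 stood apart, with 1.42% of its counts on genes annotated as antisense against 0.217% to 0.247% in the other 5 compared libraries, so results are also given without it. Replicate 3 libraries stood apart as well, with 0 counts of 44 coding genes that exceeded 5 CPM (counts scaled to a library total of 1e6, with TMM factors) in the other replicates. Levels are shares of a library's own RNA, and in bulk RNA less RNA per cell and fewer cells holding it cannot be told apart. No value in the text measures total mRNA per cell.

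At time point 40, 171 of 14186 genes were called lower than at time point 0, which is 1.21%, and 2 were called higher, which is 0.0141% (adjusted p below 0.05). The log2 changes of the 171 ranged from -4.46 to -0.42 with a median of -1.06, and 91 of them were below -1 and 36 below -2. In 138 of the 171 all 3 libraries of time point 40 lay below all 3 of time point 0, an ordering found in 627 tested genes, 4.42% of all. Within replicates, 170 of the 171 were lower at 40 in all 3 pairs, which is no separate support since the calls used these pairs as a block. Relative to the scaled library total most genes moved little, 10753 (75.8%) by less than 0.25 on the log2 scale. The median over all tested genes was 0.01. TMM scaling centres the bulk of the changes near 0, so that median is partly set by the scaling. At an unadjusted p below 0.05, 842 genes were lower and 296 higher. With the replicate block left out, 60 genes were called lower and 0 higher, and all 60 were among the 171.

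**Figure D1:**
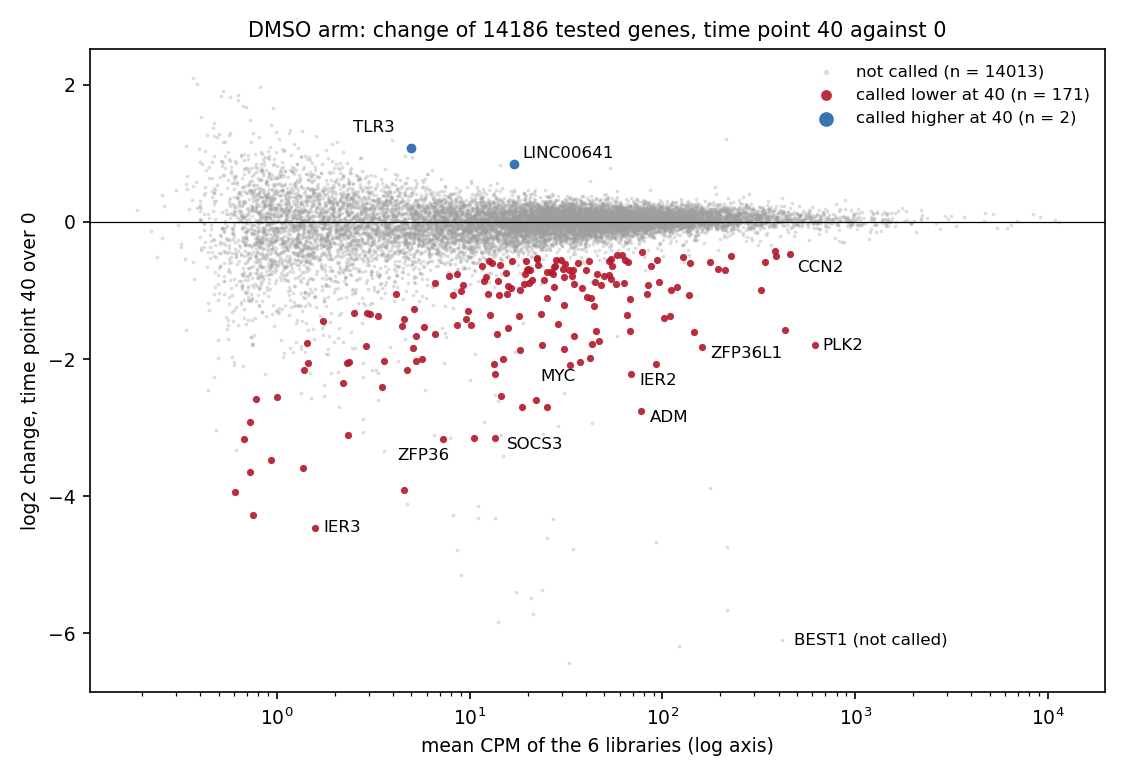
Log2 change of time point 40 over time point 0 for the 14186 tested genes, against the mean CPM of the 6 libraries on a log axis; each point is 1 gene. The 171 genes called lower reach from -4.46 to -0.42, while most abundant genes lie close to 0; BEST1, near the bottom, was not called.

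Early-response regulators, the transcription factors and immediate-early genes that serum, stress and growth factors induce within minutes, fell more often than any other list of protein-coding genes examined. Of 45 tested, 22 were called lower (48.9%, against 1.21% of all genes), 42 had a negative change and the list's median log2 change was -0.73. The median was -0.87, -0.78 and -0.64 within replicates 1, 2 and 3. IER2, an immediate-early nuclear protein, had 25.4, 28.1 and 18.6 CPM in replicates 1 to 3 of time point 40, against 115, 153 and 73.8 CPM at time point 0, a log2 change of -2.22 (SE 0.14, adjusted p 1.2e-09). MYC, a growth-promoting transcription factor, had 12.3, 12.8 and 19.5 CPM at time point 40 and 50.5, 62.4 and 66.9 CPM at time point 0 (log2 change -2.04, SE 0.14, adjusted p 2.64e-09). All libraries of time point 40 were below all of time point 0 for both genes, with MYC highest in replicate 3 and IER2 lowest there.

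JUN and JUNB are subunits of the AP-1 transcription factor and each have a single exon. JUN had 76.1, 96.6 and 44.1 CPM at time point 40 and 237, 282 and 138 CPM at time point 0 (log2 change -1.61, SE 0.14). JUNB had 13.9, 15.1 and 10.2 CPM at time point 40 and 55.6, 64.1 and 26.9 CPM at time point 0 (log2 change -1.85, SE 0.26). Their partner FOS had 4.50, 6.51 and 1.37 CPM at time point 40 and 41.1, 27.7 and 6.29 CPM at time point 0, so that the groups overlapped although each replicate fell (log2 change -2.54, SE 0.39, adjusted p 0.00165). EGR1, a zinc-finger immediate-early factor, was even across time point 40 at 29.02, 34.7 and 33.5 CPM but uneven at time point 0 at 189.7, 222 and 49.7 CPM (log2 change -2.07, SE 0.38, adjusted p 0.02). The call of EGR1 did not survive leaving out replicate 1 or 2 of time point 0 (adjusted p 0.0718 and 0.0831) or replicate 1 or 2 of time point 40 (0.12 and 0.173).

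Several other regulators fell as well. KLF6, a Krueppel-like factor, had 56.1, 53.8 and 73.4 CPM at time point 40 and 179.8, 134 and 156 CPM at time point 0 (log2 change -1.37, SE 0.13). ID1, an inhibitor of basic helix-loop-helix factors, had 6.13, 5.45 and 6.33 CPM at time point 40 and 22.4, 23.2 and 26.02 CPM at time point 0 (log2 change -1.996, SE 0.16). SNAI1, a repressor of E-cadherin, fell by 2.17 on the log2 scale (SE 0.24). Without the replicate block, 10 of the 22 calls in this list remained, and JUN (adjusted p 0.274), JUNB (0.0606), FOS (0.577) and EGR1 (0.0653) were among those lost.

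Feedback inhibitors of signalling were the next most often called list, with 18 of 46 tested members lower (39.1%) and a median log2 change of -0.39. SOCS3, which shuts off JAK-STAT signalling by cytokine receptors, had 2.01, 2.90 and 3.27 CPM at time point 40, against 27.9, 26.4 and 18.8 CPM at time point 0 (log2 change -3.15, SE 0.20, adjusted p 1.52e-09). DUSP1, a phosphatase of MAP kinases, had 7.38, 11.6 and 2.32 CPM at time point 40 and 53.8, 41.0 and 35.2 CPM at time point 0 (log2 change -2.69, SE 0.37). TRIB1, a pseudokinase that brings substrates to the ubiquitin ligase COP1, had 6.80, 5.10 and 6.43 CPM at time point 40 and 44.2, 47.6 and 22.2 CPM at time point 0 (log2 change -2.60, SE 0.22). The 2 groups did not overlap for any of these 3 genes, and the SOCS3 window printed above holds a pair of overlapping 7-mers.

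The Sprouty proteins SPRY1 and SPRY2 restrain the RAS-ERK pathway. SPRY1 had 0.958, 0.792 and 1.58 CPM at time point 40 and 7.05, 6.52 and 4.27 CPM at time point 0 (log2 change -2.41, SE 0.29). SPRY2 was more abundant, with 61.2, 65.01 and 40.6 CPM at time point 40 and 174, 172 and 98.9 CPM at time point 0, and fell by 1.41 on the log2 scale (SE 0.10). ARRDC3, an alpha-arrestin that directs receptors to degradation, had 15.8, 12.7 and 23.2 CPM at time point 40 and 74.8, 64.1 and 63.1 CPM at time point 0 (log2 change -1.99, SE 0.15). An antisense gene lies opposite ARRDC3. Without the block 7 of the 18 calls remained, and DUSP1 was among those lost (adjusted p 0.0568).

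Targets of NF-kB included 6 called lower of 22 tested (27.3%), with a median of -0.65. That median depended on which libraries and members entered the fit, being -0.24 without replicate 1 of time point 0 and -0.26 in the 6 libraries alone, where fewer members passed the count filter. NFKBIA, the inhibitor that NF-kB induces against itself, had 15.8, 13.4 and 8.22 CPM at time point 40 and 62.2, 70.0 and 30.1 CPM at time point 0 (log2 change -2.09, SE 0.17, adjusted p 4.35e-08). NFKBIZ, an atypical IkB protein of the nucleus, had 8.43, 10.5 and 5.27 CPM at time point 40 and 28.6, 26.5 and 15.6 CPM at time point 0 (log2 change -1.55, SE 0.18). IER3, an inhibitor of apoptosis, had the lowest fitted change of all calls, but its levels were 0.192, 0.176 and 0 CPM at time point 40 and 5.39, 3.77 and 0 CPM at time point 0. Both of its replicate 3 libraries were at 0 and the remaining libraries of time point 40 lay below the value of 3 counts, so its change rests on replicates 1 and 2. TNFAIP3, the deubiquitinase A20, was called (log2 change -1.05, adjusted p 0.012), though not without replicate 1 of time point 0 (0.154) or replicate 1 (0.101) or 2 (0.055) of time point 40. No member of this list kept its call without the block. All 6 calls also count in other lists. IER3 is among the early-response regulators, NFKBIA, NFKBIZ and TNFAIP3 among the feedback inhibitors, and CXCL2 and IL6 among the cytokines. The lists are therefore not separate sets of genes.

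Proteins that destroy mRNA were split by their own mRNAs. Among 24 regulators that select mRNAs for decay, 5 were called lower (20.8%), namely ZFP36, ZFP36L1, ZFP36L2, BTG2 and ZC3H12A, whereas the median of the list was 0.03. Among 51 enzymes and cofactors of deadenylation, decapping and exonucleolytic decay, 0 were called, 0 were called without the block, and the median was 0.05. The AU-rich element binding protein gene ZFP36 had 1.25, 4.05 and 0.949 CPM at time point 40 and 25.6, 21.03 and 10.2 CPM at time point 0 (log2 change -3.15, SE 0.33, adjusted p 5.64e-06). Its paralog ZFP36L1 had 72.5, 70.7 and 68.3 CPM at time point 40 and 295, 245 and 213 CPM at time point 0 (log2 change -1.82, SE 0.12). ZFP36L2 had 29.6, 26.7 and 46.3 CPM at time point 40 and 87.8, 97.4 and 118 CPM at time point 0 (log2 change -1.59, SE 0.13). All 3 paralogs were thus lower in every library of time point 40, by different factors. BTG2, which stimulates the CCR4-NOT deadenylase, fell by 3.11 on the log2 scale (SE 0.46) at a low level of 0.498 ± 0.35 CPM at time point 40 and 4.21 ± 0.185 CPM at time point 0 (SD, n = 3 each). ZC3H12A, the endonuclease Regnase-1, fell by 1.36 (SE 0.19) and was the member not called without the block (adjusted p 0.443).

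Genes of the integrated stress response were called in 6 of 23 tested (26.1%), with a list median of -0.21. DDIT4, an inhibitor of the growth kinase complex mTORC1, had 5.08, 8.44 and 1.58 CPM at time point 40 and 36.8, 48.0 and 12.7 CPM at time point 0 (log2 change -2.71, SE 0.19, adjusted p 5.36e-09). GADD45B, a stress-inducible activator of MAP kinase kinase kinases, had 17.8, 18.5 and 29.7 CPM at time point 40 and 69.6, 68.5 and 77.7 CPM at time point 0 (log2 change -1.74, SE 0.12). DDIT3, the transcription factor CHOP, had 15.2, 30.9 and 9.70 CPM at time point 40 and 36.8, 69.3 and 22.6 CPM at time point 0, overlapping between groups while falling within each replicate (log2 change -1.21, SE 0.12). The phosphatase subunits that reverse eIF2α phosphorylation both fell. PPP1R15A, the induced subunit, changed by -0.95 (SE 0.11) and PPP1R15B, the constitutive one, by -0.70 (SE 0.11). Without the block DDIT4 (adjusted p 0.383), DDIT3 (1) and PPP1R15A (1) were not called.

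Secreted growth factors and cytokines were called in 11 of 51 tested (21.6%), with a median of -0.19. ADM, which encodes the vasodilator peptide adrenomedullin, had the smallest adjusted p of all genes. Its levels were 19.5, 19.4 and 20.98 CPM at time point 40, against 148, 142 and 117 CPM at time point 0, so that 14.7% of the level remained (log2 change -2.76, SE 0.14, adjusted p 1.05e-10). LIF, a cytokine of the IL-6 family, had 65.6, 96.1 and 56.5 CPM at time point 40 and 176, 178 and 89.8 CPM at time point 0 (log2 change -0.997, SE 0.15). IL6 itself was low, at 1.05, 1.41 and 0.105 CPM at time point 40 and 6.64, 3.77 and 0.960 CPM at time point 0 (log2 change -2.06, adjusted p 0.00319). The call of IL6 was lost without replicate 1 of time point 0 (adjusted p 0.071) and without replicate 1 of time point 40 (0.0639). Only 1 call of this list, that of ADM, remained without the block.

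The matricellular proteins CCN1 and CCN2 are targets of the coactivators YAP and TAZ. CCN1 had 183, 142 and 349.7 CPM at time point 40 and 629.6, 509 and 784 CPM at time point 0 (log2 change -1.58, SE 0.13). CCN2 had 449, 289 and 407 CPM at time point 40 and 569.5, 386 and 637 CPM at time point 0, with overlapping groups and a log2 change of -0.47 (SE 0.09, adjusted p 0.00718). The call of CCN2 was lost without replicate 1 (adjusted p 0.0582) or 3 (0.0655) of time point 0 and without replicate 2 (0.0912) or 3 (0.0862) of time point 40. Without the block neither was called, at adjusted p 0.0928 for CCN1 and 1 for CCN2. With GADD45B and ANKRD1 they were the 4 called of 22 YAP and TAZ targets (18.2%). The list's median was 0.03, but -0.08 without replicate 2 of time point 0, where 4 were called, and -0.31, 0.17 and -0.06 within replicates 1 to 3, so it had no steady direction.

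Of 32 p53 targets, 4 were called lower (12.5%, against 1.21% of all genes), and the list's median was -0.10. Among the 4 was PLK2, a Polo-like kinase and the most abundant RNA called lower. PLK2 had 236, 189.8 and 423 CPM at time point 40 and 895, 766 and 1189 CPM at time point 0 (log2 change -1.80, SE 0.11, adjusted p 1.2e-09). CDKN1A, the p53-induced cyclin-dependent kinase inhibitor p21, had 167, 179 and 154 CPM at time point 40 and 218, 266 and 186 CPM at time point 0 and missed the threshold (log2 change -0.41, SE 0.10, adjusted p 0.052). It was called with DESeq2 (adjusted p 0.0145) and with limma-voom (0.0465). CDKN1B, the kinase inhibitor p27 that marks quiescent cells, had 48.2, 31.1 and 50.9 CPM at time point 40 and 88.3, 90.4 and 99.8 CPM at time point 0 (log2 change -1.13, SE 0.13, and adjusted p 0.051 without the block). FBXO5, an inhibitor of the anaphase-promoting complex, fell by 0.90 on the log2 scale (SE 0.13).

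Host transcripts of small RNAs fell in part. Of 28 tested hosts of small nucleolar RNAs, 4 were called lower (14.3%, against 1.21% of all genes), SNHG1, SNHG3, SNHG12 and SNHG15. The list's median was -0.31. The median was -0.06, -0.37 and -0.35 within replicates 1 to 3. SNHG1 had 60.0, 62.5 and 42.0 CPM at time point 40 and 118, 123 and 95.9 CPM at time point 0 (log2 change -1.05, SE 0.12, and adjusted p 0.0726 without the block). SNHG12 fell by 1.38 (SE 0.15), SNHG15 by 1.07 (SE 0.16) and SNHG3 by 0.92 (SE 0.10) on the log2 scale. SNHG3 shares its strand with RCC1, and SNHG12 lies opposite TRNAU1AP.

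Of 15 tested hosts of microRNAs, 2 were called lower (13.3%, against 1.21% of all genes), MIR222HG and MIR23AHG. Their 3-prime arm microRNAs, from RefSeq on GRCh38.p14, are shown with the seed (bases 2 to 8) in capitals, since the pair in MIR222HG shares its seed.
hsa-miR-221-3p: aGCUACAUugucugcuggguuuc
hsa-miR-222-3p: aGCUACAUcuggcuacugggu
hsa-miR-23a-3p: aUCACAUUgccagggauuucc
hsa-miR-27a-3p: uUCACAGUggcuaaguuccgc
hsa-miR-24-3p: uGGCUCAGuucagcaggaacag
MIR222HG, on the X chromosome, had 11.3, 8.005 and 12.8 CPM at time point 40 and 39.8, 42.9 and 27.8 CPM at time point 0 (log2 change -1.80, SE 0.21, adjusted p 1.7e-05). MIR23AHG, on chromosome 19, had 2.59, 6.77 and 4.53 CPM at time point 40 and 28.2, 29.2 and 9.70 CPM at time point 0 (log2 change -2.22, SE 0.28). MIR23AHG lies opposite ZSWIM4. Mature microRNAs are too short for these libraries, so the values are those of the long transcripts.

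Zinc-finger and lineage transcription factors shifted down by less. Of 431 tested ZNF genes, 298 were lower at time point 40 and the median was -0.14, within replicates -0.18, -0.21 and -0.08, while 14 were called (3.25%). ZNF574 had 9.87, 9.94 and 10.5 CPM at time point 40 and 20.5, 19.4 and 23.2 CPM at time point 0 (log2 change -1.06, SE 0.15). ZNF526 had 4.89, 5.37 and 5.80 CPM at time point 40 and 10.6, 12.1 and 10.8 CPM at time point 0 (log2 change -1.06, SE 0.20). Without replicate 2 of time point 0 the median of the ZNF genes was -0.12 and 6 were called. SOX9, a progenitor transcription factor, had 52.2, 53.8 and 69.9 CPM at time point 40 and 102, 107 and 122 CPM at time point 0 (log2 change -0.92, SE 0.10). SOX9 and FOXC2 were the 2 called of 42 SOX, FOX and HOX genes (4.76%, against 1.21% of all genes). OTX2, a homeobox factor of the retinal pigment epithelium, had 22.03, 17.2 and 17.2 CPM at time point 40 and 34.5, 36.0 and 24.0 CPM at time point 0 (log2 change -0.74, SE 0.12, and adjusted p 0.104 without the block).

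Several lists of basic cell machinery, of the matrix and of the cell surface held no called gene. Translation factors, with 2 of 36 called lower (5.56%, EIF4A1 and EIF4A2), and ribosomal proteins, with 1 of 78, were not among them. In the lists of the respiratory chain (72 tested), the proteasome (31), glycolysis (17), the lysosome (30), the secretory pathway (38), the extracellular matrix (35), integrins and growth factor receptors (42) and solute carriers (211), 0 were called in either direction. The share called lower over all genes was 1.21%, at which lists of 17 to 72 genes would hold few calls, so a count of 0 says little about a single list. These lists and the decay enzymes were also pooled. Each had 0 calls in the same fit and lists with calls are not in the pool. Other lists with 0 calls were left out as well. Some of those were mostly negative, such as heat shock (15 of 19) and sterol genes (17 of 24). Others were mostly positive, such as Rab GTPases (35 of 52) and TMEM genes (101 of 162). The balance of the pool is therefore partly set by these choices. Of the 527 genes in the pool, 11 were lower and 15 higher at an unadjusted p below 0.05, against 842 lower and 296 higher of all 14186. In the pool DESeq2 called 1 lower and limma-voom 0. The respiratory chain, which oxidises NADH and makes ATP, had a median log2 change of 0.02 with members between -0.25 and 0.37. Its median was 0.24, -0.10 and -0.15 within replicates 1, 2 and 3, so replicates differed by more than the median change. Lysosomal genes had a median of 0.08 with 27 of 30 members positive, secretory pathway genes 0.06 with 30 of 38 positive, and integrin and receptor genes 0.11 with 33 of 42 positive. Over all genes tested, 7283 of 14186 were positive. These medians rested in part on single libraries. That of the integrin and receptor genes was 0.05 without replicate 2 of time point 0 and -0.07, 0.28 and 0.06 within replicates 1 to 3. Without replicate 1 of time point 40 the median was 0.01 for secretory pathway genes and 0.04 for lysosomal genes.

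Cytosolic ribosomal protein genes had a median of 0.01 over 78 tested, and within replicates of 0.21, -0.04 and -0.16. The 1 called, RPL36A, overlaps the read-through gene RPL36A-HNRNPH2 on its strand and had 1.25, 1.67 and 4.11 CPM at time point 40 and 9.34, 8.92 and 8.74 CPM at time point 0 (log2 change -2.005, SE 0.31). EIF4A1, which encodes an RNA helicase of translation initiation, overlaps SENP3-EIF4A1 and had 1.92, 0.880 and 1.58 CPM at time point 40 and 14.5, 16.2 and 8.53 CPM at time point 0 (log2 change -3.17, SE 0.27). How the counting divided reads between such overlapping genes is not given in the sources used here, so both values are uncertain as levels of these mRNAs. Its paralog EIF4A2, which hosts small nucleolar RNAs, had 333, 302 and 353 CPM at time point 40 and 413, 460.02 and 452 CPM at time point 0 (log2 change -0.42, SE 0.09, adjusted p 0.0108). The call of EIF4A2 was lost without replicate 1 (0.0682) or 2 (0.108) of time point 0 and without replicate 2 (0.166) or 3 (0.0637) of time point 40.

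Of 24 tested genes of the m6A RNA methylation machinery 1 was called lower (4.17%, against 1.21% of all genes), and the list's median was 0.02. The gene called was RBM15, an adaptor subunit of the m6A writer complex. RBM15 had 6.13, 6.86 and 6.11 CPM at time point 40 and 8.92, 10.6 and 13.2 CPM at time point 0 (log2 change -0.76, SE 0.17, adjusted p 0.0177), and an antisense gene lies opposite it. Its call was lost without replicate 3 of time point 0 (adjusted p 0.126), without replicate 2 (0.0709) or 3 (0.184) of time point 40 and without the block (0.149). The methyltransferase subunit genes METTL3 and METTL14 had log2 changes of -0.13 (SE 0.11) and -0.29 (SE 0.12) with no call, and the topoisomerase genes TOP2A and TOP2B had 0.14 (SE 0.14) and 0.13 (SE 0.13), also with no call. ERCC3, which encodes XPB, had 74.1, 83.4 and 59.4 CPM at time point 40 and 72.6, 81.4 and 58.1 CPM at time point 0. GAPDH averaged 6895 ± 591 CPM at time point 40 and 6842 ± 498 CPM at time point 0, and ACTB 5939 ± 1187 CPM at time point 40 and 6276 ± 1164 CPM at time point 0 (SD, n = 3 each).

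**Figure D2:**
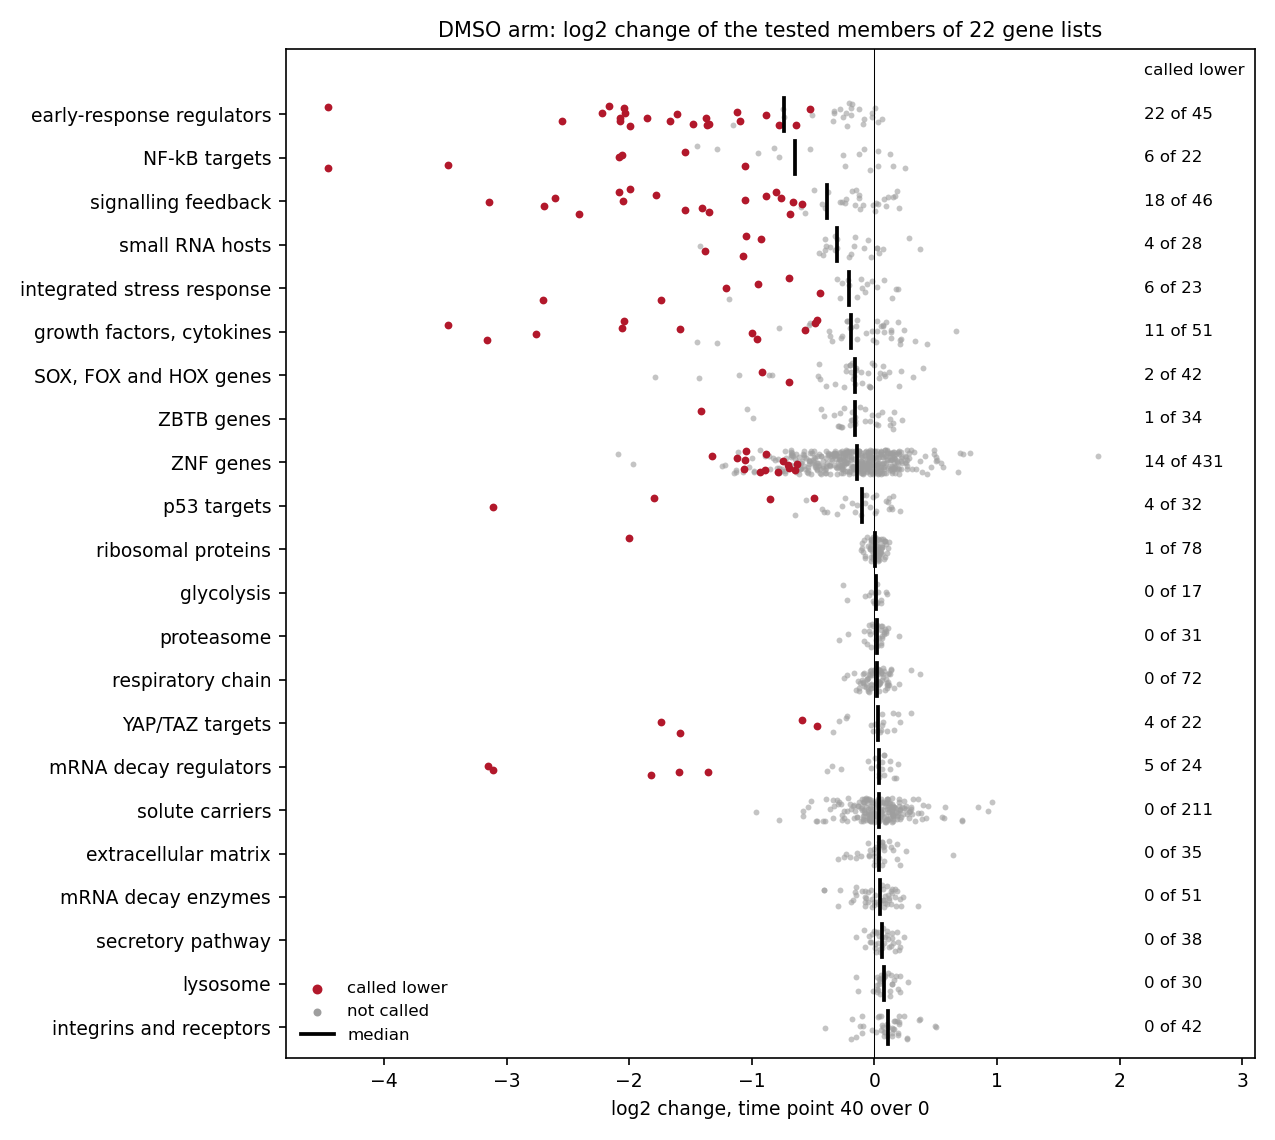
Log2 change of time point 40 over time point 0 for each tested member of 22 gene lists; points are genes, red where called lower, the black bar is the list's median and the number at the right is called lower of tested. Early-response regulators (22 of 45) and signalling feedback genes (18 of 46) extend far to the left, while the lists at the bottom gather around 0.

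The 2 RNAs called higher were LINC00641 and TLR3. LINC00641, a long noncoding RNA, had 20.8, 21.7 and 23.2 CPM at time point 40 and 13.6, 10.2 and 13.0 CPM at time point 0 (log2 change 0.84, SE 0.16, adjusted p 0.00317), and was not called without the block (0.057). TLR3, a receptor of double-stranded RNA, had 10.2, 4.93 and 5.17 CPM at time point 40 and 3.94, 1.94 and 3.52 CPM at time point 0 (log2 change 1.07, SE 0.25, adjusted p 0.0337). The call of TLR3 was lost when replicate 1 (0.151) or 2 (0.257) of time point 0 or replicate 1 (0.227) or 3 (0.0641) of time point 40 was left out. All 252 genes (1.78%) whose libraries of time point 40 all lay above those of time point 0 compare with 627 (4.42%) in the opposite order.

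The DMSO libraries of time point 20 entered the fit's estimates of spread and block but not the contrast of 40 against 0. For the genes called lower they lay mostly between the ends. Of the 171 genes called lower, 158 had a mean at time point 20 between those of time points 0 and 40, 13 had one above time point 0 and 0 had one below time point 40. The median log2 change of the 171 against time point 0 was -0.22 at time point 20 and -1.06 at time point 40. The 171 were chosen for high values at time point 0 and low values at 40 in these same libraries. A mean at time point 20 between those ends is therefore partly set by that choice. The change at time point 20 also uses the selected values of time point 0. No share over all tested genes is given beside it, so time point 20 is no separate support for the calls. ADM averaged 136 ± 16.3 CPM at time point 0, 94.4 ± 6.17 CPM at time point 20 and 20.0 ± 0.862 CPM at time point 40 (SD, n = 3 each). MYC averaged 59.9 ± 8.45 CPM at time point 0, 47.9 ± 11.1 CPM at time point 20 and 14.8 ± 4.05 CPM at time point 40 (SD, n = 3 each). Both genes lost more between time points 20 and 40 than between 0 and 20. NUAK2, a stress kinase with 4 TATTTAT in its 3′ UTR, was instead at 4.56, 7.89 and 4.91 CPM at time point 0, 7.15, 6.02 and 7.25 CPM at time point 20 and 1.34, 1.58 and 1.27 CPM at time point 40. Its mean at time point 20 was above that at time point 0, and below the highest library of time point 0.

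**Figure D3:**
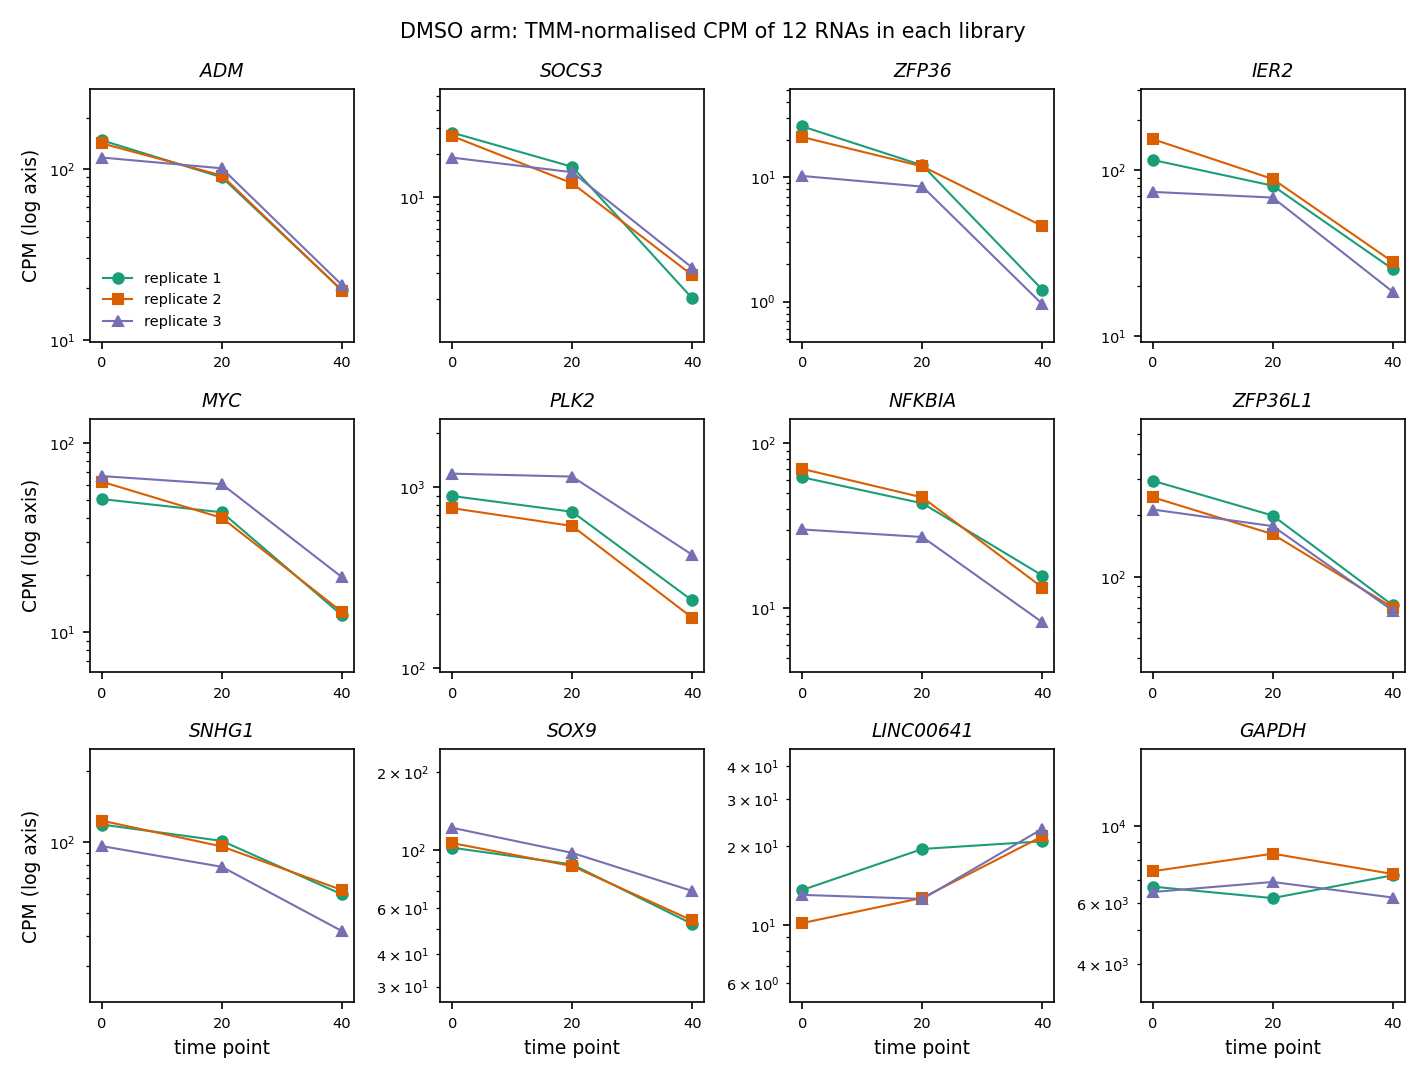
TMM-normalised CPM on log axes at time points 0, 20 and 40 of the DMSO arm for 12 RNAs; each line joins the 3 libraries of 1 replicate number. ADM, SOCS3, IER2 and MYC drop mainly after time point 20 in the lines of all 3 replicates, LINC00641 is highest at 40, and GAPDH stays level.

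Transcripts of genes with few exons were called lower most often. Among 12161 coding genes with a complete annotated transcript, 153 were called lower (1.26% of 12177 coding genes), and the share was 9.09% for 1 exon (21 of 231), 6.67% for 2, 4.04% for 3, 2.03% for 4 to 5, 0.522% for 6 to 10, 0.254% for 11 to 20 and 0.121% for more than 20 exons (2 of 1659). The median log2 change ran with it, at -0.19 for 1 exon, -0.16 for 2 and 0.04 for more than 20. Genes called lower had a median of 3 exons and the other genes 9. Without replicate 2 of time point 0 the shares were 6.93% for 1 exon, 5.93% for 2 and 0.121% for more than 20. The order of medians was not the same in every replicate, since genes with over 20 exons had a median of -0.17 within replicate 1 and 0.20 within replicate 2. Single-exon genes called lower included IER5L, an IER family gene at 4.41, 4.84 and 6.22 CPM at time point 40 and 20.3, 21.3 and 23.5 CPM at time point 0 (log2 change -2.08, SE 0.33). ZCCHC3, a nucleic acid binding cofactor of antiviral sensing, had 7.85, 8.18 and 7.49 CPM at time point 40 and 33.6, 29.7 and 22.7 CPM at time point 0 (log2 change -1.86, SE 0.16).

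TATTTAT was present in the 3′ UTR of 78 of the 153 coding genes called lower (51.0%) and of 4022 of all 12161 (33.1%). The shorter ATTTA pentamer, which each TATTTAT contains, was present in 83.7% of those called lower and in 70.1% of all, and the Pumilio 8-mer TGTAAATA, which contains neither, in 19.6% and 13.6%. The share called lower was 0.921% with 0 TATTTAT, 1.26% with 1, 2.18% with 2 and 3.84% with 3 or more, counting overlapping matches on the sense strand of the mRNA only. Median changes did not run the same way, being -0.00396 with 0 matches and 0.06 with 3 or more. This difference rested on replicate 2 of time point 0, without which the medians were 0.00785 and 0.00601 and the shares called lower 0.676% and 3.15%. Within replicates 1 to 3 the median with 3 or more matches was 0.0092, 0.099 and -0.00087. In the etoposide arm the medians were 0.028 with 0 matches and -0.069 with 3 or more. Of 730 genes with 3 or more matches, 28 were called lower and 255 moved by less than 0.1, and 75 of those called lower had no match. The held mRNA ENO2, whose window is printed above, had 181, 232 and 196 CPM at time point 40 and 185, 224 and 178 CPM at time point 0. MACF1 was noisier, with 243, 508 and 539 CPM at time point 40 and 373, 320.0 and 621 CPM at time point 0.

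Exon number and 7-mers together marked the largest share. Of 103 genes with 1 to 2 exons and 2 or more TATTTAT, 19 were called lower (18.4%), and SOCS3, ZFP36 and SPRY1 belong to this group. With 1 to 2 exons and 0 matches 29 of 519 were called (5.59%), with 6 or more exons and 2 or more matches 11 of 1197 (0.919%), and with 6 or more exons and 0 matches 11 of 5856 (0.188%). The 3′ UTR was of similar length in both groups, with a median of 1053 bases in genes called lower and 1097 bases in the others. GC content at the third position of codons was higher in genes called lower, at a median of 69.3%, than in the others at 58.0%. These features overlap between genes, which are not replicates, and the counts are a description without a test.

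**Figure D4:**
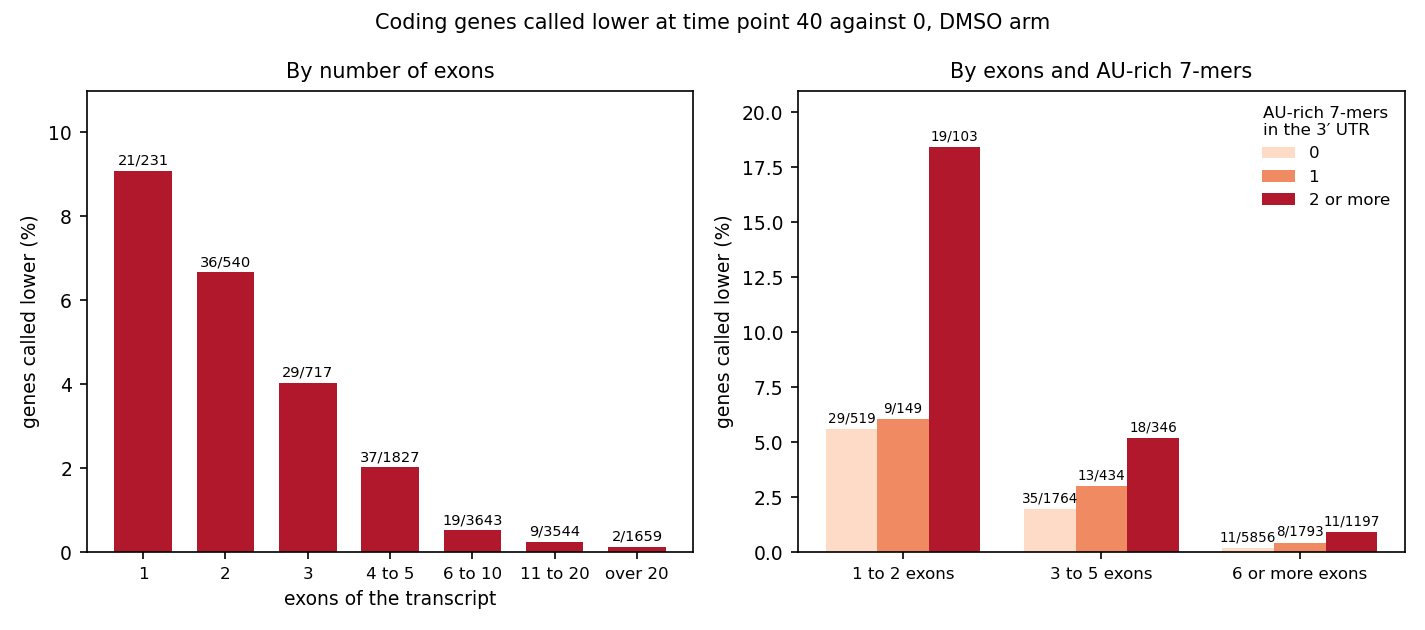
Percent of coding genes called lower at time point 40, by the number of exons of the transcript (left) and by exons and the number of TATTTAT matches in the 3′ UTR (right); numbers above the bars are called lower of all genes in the bin. The share declines from 9.09% at 1 exon to 0.121% above 20 exons, and the bar of 1 to 2 exons with 2 or more matches reaches 18.4%.

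Leaving out replicate 2 of time point 0 changed a part of the calls. Without it 131 genes were called lower and 1 higher, 129 of the 171 remained and all 171 kept a negative change. The 42 lost included EGR1, EIF4A2, the NF-kB target CXCL2, the feedback inhibitor SOCS1 and 8 of the 14 ZNF genes, and also FOXC2, GADD45A and XBP1. By list, 20 early-response regulators were called without it, against 22 with it, 17 signalling feedback genes against 18, and 5 decay regulators in both fits. Genes annotated as antisense had a median of -0.20 over 550 tested with that library and 0.00 without it. BEST1, a chloride channel gene opposite FTH1, is the plainest case, at 2.78, 6.60 and 5.17 CPM at time point 40 and 18.4, 2455 and 8.32 CPM at time point 0, with no call by edgeR (adjusted p 0.285). It was called by DESeq2 (adjusted p 7.15e-05) and by edgeR with no filter on low counts (2.12e-251), and its log2 change was -6.09 with that library and -1.73 without it. Genes overlapped by another on the opposite strand made up 32.7% of those called lower and 38.1% of all tested.

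**Figure D5:**
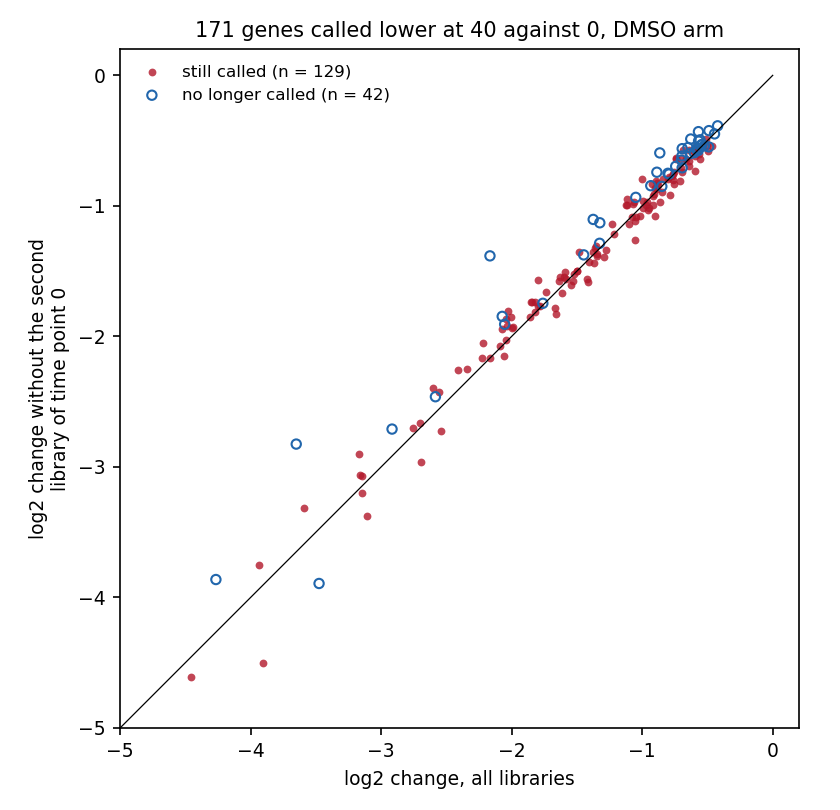
Log2 change of the 171 genes called lower, fitted with all libraries (horizontal) and without replicate 2 of time point 0 (vertical); the line marks equal values. The 129 genes still called (filled) and the 42 no longer called (open) lie along the line and below 0 on both axes.

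The etoposide arm, measured in separate libraries, was set beside the DMSO arm. Of the 171 genes, 168 were lower at time point 40 than at time point 0 in that arm as well, with a median log2 change of -0.85 there and -1.06 in the DMSO arm. SOCS3 changed by -2.21 with etoposide and -3.15 with DMSO, and ADM by -2.03 and -2.76. The difference between arms was called for 0 of 14186 genes (0.0%), with 262 genes of higher and 223 of lower change in the etoposide arm at an unadjusted p below 0.05, and for 0 genes by DESeq2 and by limma-voom. The 171 genes were chosen by their fall in the DMSO arm, so their smaller median in the etoposide arm is no evidence of a difference. A p that misses the threshold does not show that the arms decay alike.

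Markers of the labelled epithelium were detected in part. Of 20 retinal pigment epithelium markers 13 were tested, whereas CRX, RGR, SLC16A8 and TTR had 0 counts in all 6 libraries. KRT8 and KRT18 made up most of the list at time point 40, with means of 670 and 604 CPM. MITF, RDH10 and OTX2 averaged 44.5, 30.7 and 18.8 CPM there. RPE65, RLBP1, TYRP1, LRAT and TYR averaged only 0.423, 0.910, 0.756, 0.0938 and 0 CPM. The list summed to 1171 to 1789 CPM at time point 40 and 1465 to 3719 CPM at time point 0, the highest value being set by BEST1 in replicate 2. Fibroblast markers summed to 806 to 982 CPM at time point 40 and 806 to 968 CPM at time point 0, with 9 of 12 tested. THY1, FAP and PDGFRB averaged 511, 200 and 113 CPM at time point 40, and COL1A2, COL3A1 and LUM 0.181, 0.228 and 0.224 CPM. Of 12 markers of other epithelia 1 was tested, MUC1, with means of 13.8 CPM at time point 40 and 12.5 CPM at time point 0. CDH1, CLDN3, KRT5, KRT14 and KRT20 were at 0. Markers of other epithelia summed to 13.2 to 17.0 CPM at time point 40 and 11.8 to 14.7 CPM at time point 0. Of 10 blood markers 1 was tested and the haemoglobin genes HBA1, HBA2 and HBB were at 0. Blood markers summed to 1.48 to 2.11 CPM at time point 40 and 1.17 to 2.59 CPM at time point 0, and endothelial markers to 2.21 to 3.93 CPM at time point 40 and 1.17 to 2.70 CPM at time point 0. OTX2 and TWIST1 were the marker genes called lower, TWIST1 not without replicate 2 of time point 0.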

How the data were processed

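The values deposited by the authors are raw read counts for each Ensembl gene, whole numbers without normalisation, from TruSeq Stranded mRNA libraries. The tools named in the submitters' processing notes are bcl2fastq, HISAT2 and featureCounts, and the build is GRCh38 (hg38). The sources used here give no versions, annotation release or strand setting, so reads of overlapping and antisense partners may be mixed. Of 58051 identifiers, 57447 matched GENCODE 29, which gave gene types, positions and 1 coding transcript per gene.

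Counts of all 18 libraries were fitted in edgeR 4.0.16 (R 4.3.3; quasi-likelihood, robust, TMM factors 0.978 to 1.02) with group and replicate number as terms, after edgeR's default filter, which kept 14186 genes and 99.84% of counts. The Benjamini-Hochberg adjustment ran over all tested genes and a call needed an adjusted p below 0.05. SE is that of the log2 change, and within-replicate changes use log2 CPM with a prior count of 2. The replicate numbers in the labels were used as pairs because all 45 same-number pairs of libraries deviated together (correlations 0.359 to 0.911, against a minimum of 0.1). Libraries of replicates 1 and 2 also correlated with each other (0.392 to 0.630), and both negatively with replicate 3 (-0.785 to -0.531), so the check mainly sets replicate 3 apart. A count of 3 corresponds to 0.263 to 0.343 CPM in the 6 libraries. Counts set the precision of each value, and p-values measure the spread between these samples only. The test was also run on simulated counts of 14055 genes for this comparison, with 100 genes changed at each size. It recovered 89% of genes set to a log2 change of -1 and 99% of those set to -2, with 8 false calls. These rates describe the simulated counts only. They do not measure how often the test missed or wrongly called genes in the real libraries.

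The comparison and the gene lists were chosen with earlier results of these data known. The genes named are called genes of at least 5 CPM in the higher group whose replicates did not overlap (the 25 largest falls and up to 25 rises), the 5 smallest p of each list, and fixed check genes. Other genes named only as called list members fall outside this rule. Lists are described by counts and medians, with no test. Some lists share members, such as BTG2 and GADD45B, so a gene called in one list can be counted again in another. Alternatives were other scalings, filters and tools (DESeq2 1.42.0, limma-voom 3.58.1), fewer libraries, no block and leaving out each library. A gene of the blood marker list is not reported here by name.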

Additional observations from a re-analysis of the deposited data

How the results depend on the processing

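The number of genes called lower, 171 in the reported fit, ranged from 117 to 192 when single libraries were left out, lowest without replicate 2 of time point 40 (117) and 131 without replicate 2 of time point 0. It was 60 without the replicate block, 644 with no filter on low counts, 109 in the 6 compared libraries alone, 98 with replicate 3 left out of all groups, and 233 with DESeq2. Alternatives chosen after seeing the data gave 12 in the 6 libraries without the block, 86 in the compared libraries without replicate 2 of time point 0 and 101 with replicate 2 left out of both groups. The number called higher, 2 in the reported fit, was 1 to 7 with single libraries left out, 18 with no filter, 4 with DESeq2, 1 when scaled to glycolysis, ribosomal protein and cytoskeleton genes, with a mean of at least 5 CPM, in the 6 libraries or in the 9 DMSO libraries, and 0 without the block, without replicate 3, and in the 3 alternatives chosen after seeing the data. The difference between arms was called for 108 genes with no filter and for 0 to 1 with single libraries left out. Of 56 named and called genes, 0 changed sign in any of these settings. The call was lost for 24 without the block, 45 in the 6 libraries without the block and 3 without replicate 2 of time point 0, and 10 of the 56 lost it in no setting.

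List medians moved as follows. NF-kB targets, with fewer members tested in most of these settings, had -0.26 in the 6 libraries, -0.29 there without the block, -0.39 in the 9 DMSO libraries, -0.19 at 5 CPM and -0.16 in the compared libraries without replicate 2 of time point 0. Growth factors and cytokines had -0.11 in that last setting, -0.13 with replicate 2 and -0.13 with replicate 3 left out. Decay regulators had -0.040 in the compared libraries without replicate 2 of time point 0 and -0.037 with replicate 2 left out, and decay enzymes -0.0088 and -0.00071. With single libraries left out the medians were -0.79 to -0.61 for early-response regulators, -0.83 to -0.24 for NF-kB targets, -0.16 to -0.12 for growth factors, -0.024 to 0.066 for decay regulators and -0.0019 to 0.056 for decay enzymes. YAP and TAZ targets, 0.03 in the reported fit, had -0.075 without replicate 2 of time point 40 and -0.16 in the compared libraries without replicate 2 of time point 0, where integrin and receptor genes had 0.0028. The change of GAPDH, 0.01 in the reported fit, was -0.0032 by library size alone, and with single libraries left out it ran from -0.031 (replicate 1 of time point 40) to 0.051. That of MACF1, -0.05 in the reported fit, ran from -0.27 to 0.20 with single libraries left out and was 0.057 with replicate 3 left out. The cause was not tested.

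Changes are relative to each library's total, so a fall of all RNA together would not show. Depth leaves genes under about 1 CPM with few counts.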

Other observations

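ZBTB transcription factor genes, which also carry zinc fingers, were below 0 in 24 of 34 tested members, at a median of -0.16 on the log2 scale, and 1 was called lower, ZBTB39. Of 17 circadian clock genes, 2 were called lower, the repressors BHLHE40 and NR1D1, and the list's median log2 change was -0.02. Of 24 G1 cyclins and their inhibitors, 1 was called, CDKN1B, and of 46 ubiquitin ligase genes 1, FBXO5, where 1.21% of all genes were called lower. Of 449 tested processed pseudogenes 0 were called and their median was -0.0015, and of 398 tested lincRNAs 6 were called (1.51%, near that share) at a median of -0.04. Precursor-type features gave larger falls at very low levels. All 943 genes annotated as small nucleolar RNA together summed to 6.13 to 9.07 CPM at time point 40 and 19.3 to 28.1 CPM at time point 0. Of these 943, 6 were tested and 2 were called lower. All 1567 genes annotated as microRNA together summed to 14.3 to 21.3 CPM at time point 40 and 23.2 to 116 CPM at time point 0. Of these 1567, 6 were tested and 1 was called lower, MIR221. The median log2 change of the 6 was -2.54, or -1.62 without replicate 2 of time point 0.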
